A study of Mus musculus with 17 samples.

Results

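The Irf4 and Irf8 loci were described by every accessible region of the table whose nearest transcript or nearest transcription start was given as Irf4 or Irf8. This rule took 47 of 66177 regions, 18 at Irf4 on chromosome 13 and 29 at Irf8 on chromosome 8. Chromatin accessibility had been measured by ATAC-seq, in which a transposase cuts open chromatin and attaches sequencing adapters to it. The cells were naive B cells of lymph nodes (nB), germinal center B cells that bound phycoerythrin (GCB), and plasma cells of the bone marrow sorted by CD138 (BMPC). Every mouse carried floxed alleles of both Dnmt3a and Dnmt3b, the de novo DNA methyltransferases (the strain is given as B6;129S4-Dnmt3atm3.1Enl Dnmt3btm5.1Enl/Mmnc). Dnmt3-deficient mice (KO) also carried 1 Cre allele that acts in B lineage cells, and their littermate controls (C) did not, so the controls differed from KO mice by the absence of Cre as well as of deletion. This Cre is active from early B cell development on and deletes the catalytic parts of both enzymes, and only B lineage cells carry the deletion. Mice were 8 to 12 weeks old, and 3000 to 5000 cells were used for a library. Mice giving nB had not been immunized, whereas GCB and BMPC were taken 30 days after immunization with phycoerythrin in complete Freund's adjuvant. Each GCB library pooled 2 mice, and the BMPC were sorted on CD138 without regard to antigen.

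IRF4 and IRF8 are transcription factors of the interferon regulatory factor family. Alone they bind DNA weakly, and they act largely with partners, with the ETS factors PU.1 and SPIB at composite sites and, for IRF4, with BATF and JUN proteins at AP-1 sites. IRF4 is needed for class switch recombination and for plasma cells, which express it strongly, and IRF8 is best known for B cell, germinal center, myeloid and dendritic cell programs and works with PU.1 against plasma cell formation.

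The 16 libraries comprised 3 nB C, 2 nB KO, 2 GCB C, 4 GCB KO, 3 BMPC C and 2 BMPC KO, and 1 further BMPC KO sample had been removed by the submitters. Reads in regions numbered 4104875 to 6079018 in nB, 907959 to 2280954 in GCB and 5357687 to 8232313 in BMPC, so GCB values were the least precise. Values are RPPM, reads in a region per 1000000 reads in all regions of a library, and 3 reads, the floor used here for counting error, equalled 0.364 to 3.30 RPPM, depending on the library. The nB libraries were all from males and the BMPC libraries all from females, so that cell type, sex, tissue and immunization cannot be told apart in the contrast of nB with BMPC. According to the study, GCB samples came from both sexes. The contrast of nB with GCB thus also mixes cell type with sex and immunization. That of GCB with BMPC mixes it with sex and tissue. In sorted bulk cells, fewer accessible cells and less signal per cell also cannot be told apart. By the region nearest the start of each gene, the naive B cell markers (5 of 6 with a region) summed to 217 to 254 RPPM in nB, against 85.9 to 133 in GCB and 93.9 to 99.6 in BMPC. The plasma cell markers (7 of 7) summed to 282 to 309 RPPM in BMPC, against 170 to 191 in nB and 116 to 162 in GCB, and the pan B cell markers (5 of 5) to 42.8 to 47.0 in BMPC, against 133 to 221 in the other cells. The germinal center markers (7 of 7) summed to 224 to 275 RPPM in GCB, 233 to 245 in BMPC and 191 to 207 in nB, so that they set GCB apart from nB but not from BMPC. No marker region of T cells (4 of 6) or of myeloid and dendritic cells (6 of 8) was at 0 in the mean of any group. The T cell markers summed to 129 to 142 RPPM in nB, 105 to 127 in GCB and 53.4 to 74.3 in BMPC. In nB C, Cd2 and Cd3d averaged 64.0 and 62.3 RPPM, against 3.02 for Cd3e and 0.867 for Cd4. The regions taken for Cd3d, Cd3e and Cd4 lay 4219, 5367 and 5589 bp from the starts of these genes.

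The Irf4 regions spanned 65.9 kb, from 43.8 kb upstream to 20.8 kb downstream of the start, and the Irf8 regions 121 kb, from 24.6 kb upstream to 95.4 kb downstream. A region is named here by the distance of its nearest edge from the start of its gene in the table (mm9), both genes lying on the plus strand. The annotated Irf4 transcript ran from 30841127 to 30858796 on chromosome 13 and the Irf8 transcript used for distances from 123260276 to 123267134 on chromosome 8. Of the Irf4 regions, 10 lay upstream, 1 over the start and 7 downstream, and 9 had no annotated promoter, exon or intron. The nearest transcript of 6 of them was Dusp22, a phosphatase gene further upstream, and the farthest lay in a Dusp22 intron. Of the Irf8 regions, 5 lay upstream, 1 over the start and 23 downstream, and 23 had no annotated feature. In GENCODE M1 all 29 lay within the span of a further annotated gene, Gm20388. Widths ran from 209 to 1234 bp at Irf4 (median 548.5) and from 160 to 1194 bp at Irf8 (median 442), beside a median of 510 bp for all regions.

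The sequences at the center of 6 regions are given because each had the largest rise or the largest fall at its gene in a contrast between C cell types. The regions with the largest falls from nB to GCB, 17.6 kb downstream of Irf4 and 28.0 kb downstream of Irf8, are not printed. Each is the 300 bases around the center of the region, read 5′ to 3′ on the plus strand of mm9 (NCBIM37). Capitals mark matches, on either strand, to the cores GAAAC (IRF), GGAAGT (PU.1), GGAANNGAA (ETS-IRF composite), TGANTCA (AP-1), CAGCTG (E2A) and ATGCAAAT (octamer).
Irf4 33.1 kb upstream, chr13:30807257-30807556: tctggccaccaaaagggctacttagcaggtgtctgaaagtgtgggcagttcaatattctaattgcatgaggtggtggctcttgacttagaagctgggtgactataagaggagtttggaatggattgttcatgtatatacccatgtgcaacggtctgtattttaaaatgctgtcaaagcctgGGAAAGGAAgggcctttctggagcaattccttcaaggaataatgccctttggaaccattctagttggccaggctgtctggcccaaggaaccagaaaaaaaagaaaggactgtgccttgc
Irf4 18.5 kb upstream, chr13:30822149-30822448: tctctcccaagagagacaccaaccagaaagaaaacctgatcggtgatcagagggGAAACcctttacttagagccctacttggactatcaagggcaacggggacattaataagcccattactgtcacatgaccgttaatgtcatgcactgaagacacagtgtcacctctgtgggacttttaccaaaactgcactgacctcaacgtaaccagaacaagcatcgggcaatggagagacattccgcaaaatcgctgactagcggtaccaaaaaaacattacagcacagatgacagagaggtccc
Irf4 11.6 kb upstream, chr13:30828826-30829125: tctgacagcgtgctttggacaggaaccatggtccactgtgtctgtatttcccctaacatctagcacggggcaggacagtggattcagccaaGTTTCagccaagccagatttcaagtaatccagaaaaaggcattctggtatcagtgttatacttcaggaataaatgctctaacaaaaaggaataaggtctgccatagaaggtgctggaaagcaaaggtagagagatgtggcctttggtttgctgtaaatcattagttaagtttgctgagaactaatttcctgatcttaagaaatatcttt
Irf8 24.6 kb upstream, chr8:123235181-123235480: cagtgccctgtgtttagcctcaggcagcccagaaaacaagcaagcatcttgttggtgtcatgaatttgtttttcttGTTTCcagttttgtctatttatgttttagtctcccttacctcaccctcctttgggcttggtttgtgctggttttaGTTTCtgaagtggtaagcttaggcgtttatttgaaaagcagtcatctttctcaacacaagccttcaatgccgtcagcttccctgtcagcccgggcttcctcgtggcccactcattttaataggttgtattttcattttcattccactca
Irf8 4.0 kb upstream, chr8:123255973-123256272: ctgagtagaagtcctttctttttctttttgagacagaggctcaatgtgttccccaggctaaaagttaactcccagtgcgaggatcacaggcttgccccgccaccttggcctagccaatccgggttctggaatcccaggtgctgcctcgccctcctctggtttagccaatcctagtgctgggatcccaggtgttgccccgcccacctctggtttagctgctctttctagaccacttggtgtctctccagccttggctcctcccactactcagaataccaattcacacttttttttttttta
Irf8 8.2 kb downstream, chr8:123268423-123268722: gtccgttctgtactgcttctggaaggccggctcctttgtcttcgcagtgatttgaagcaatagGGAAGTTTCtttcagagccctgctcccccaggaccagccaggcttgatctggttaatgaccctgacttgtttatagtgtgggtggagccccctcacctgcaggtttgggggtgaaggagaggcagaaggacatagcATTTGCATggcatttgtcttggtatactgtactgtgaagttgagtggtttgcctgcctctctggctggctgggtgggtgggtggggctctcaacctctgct

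A match describes letters and is not evidence of binding. The window 33.1 kb upstream of Irf4 held 1 match to the composite core and 1 CG, and the window 18.5 kb upstream held 1 IRF core and 8 CG. At Irf8, the window 8.2 kb downstream, which reaches beyond a region of 163 bp, held a PU.1 core overlapping an IRF core and an octamer. Of this PU.1 core (chr8:123268486-123268491) only the last base lay in the region, which starts at 123268491. The window 4.0 kb upstream held none of the 6 cores. Over all members, an IRF core was present in 14 of 18 windows at Irf4 (77.8%) and in 16 of 29 at Irf8 (55.2%), against 55.4% of the 65893 windows of the same length over all regions on named chromosomes. The PU.1 core was in 5 and 9 windows (27.8% and 31.0%, against 30.3% of all windows), the composite core in 3 and 3 (16.7% and 10.3%, against 11.6%) and the AP-1 core in 2 and 3 (11.1% and 10.3%, against 9.18%). The E2A core was in 3 and 7 (16.7% and 24.1%, against 20.6%) and the octamer in 1 and 3 (5.56% and 10.3%, against 3.96%). The composite core can share letters with the IRF and PU.1 cores. CG dinucleotides, the sites of DNA methylation, numbered 0 to 23 in the Irf4 windows (median 4.5) and 0 to 39 in the Irf8 windows (median 5), beside a median of 5 in all windows, and the highest count at Irf8 was at its start.

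**Figure D1:**
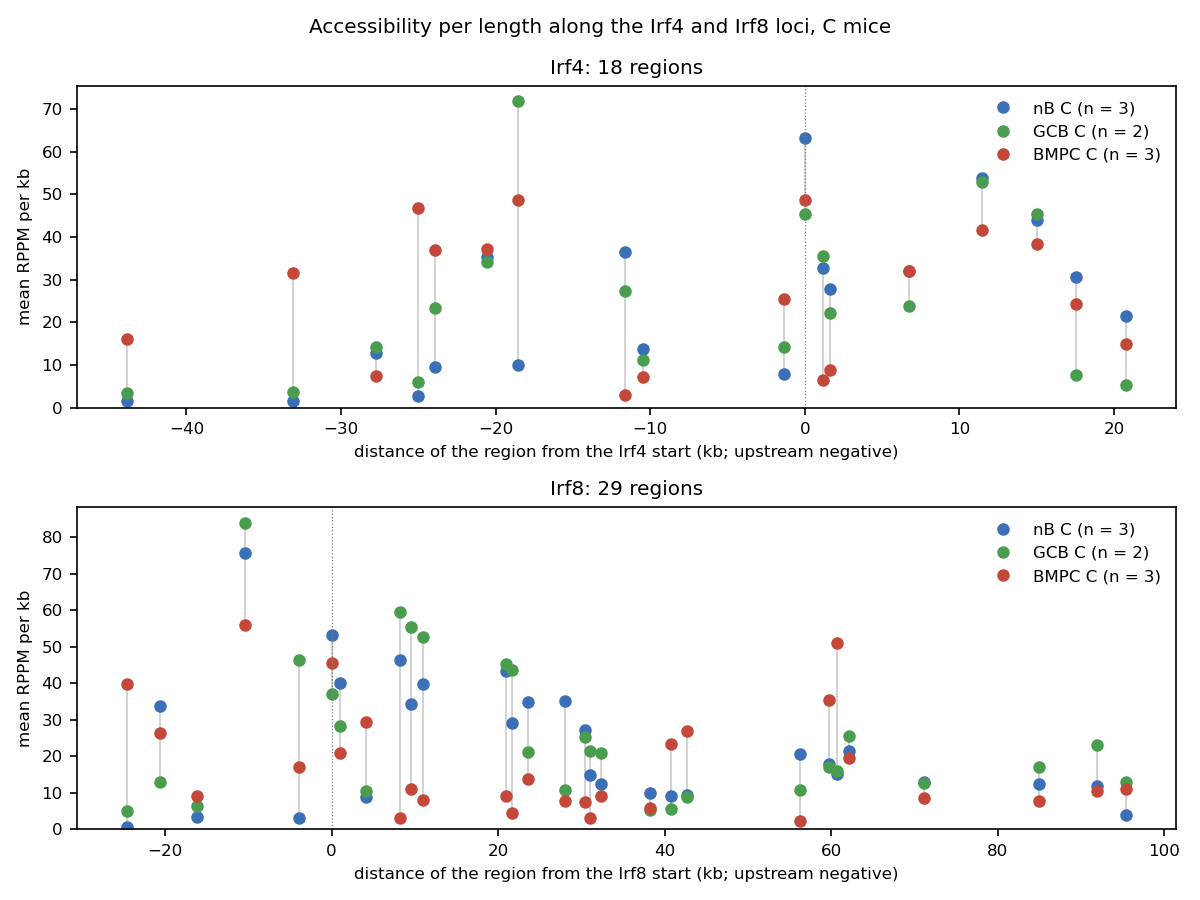
Mean RPPM per kb of region (y axis) against the distance of each region from the gene's start in kb (x axis, upstream negative), in nB, GCB and BMPC of C mice, with Irf4 above and Irf8 below; grey lines join the 3 means of a region. Per length, the highest mean at Irf4 was 71.9 RPPM per kb in GCB 18.5 kb upstream, and the highest at Irf8 was 84.0 in GCB 10.4 kb upstream.

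The regions over the transcription starts changed little between cell types. At the Irf4 start (chr13:30840669-30841575, promoter, first exon and intron), nB C libraries had 55.1, 61.2 and 55.8 RPPM, GCB C 39.6 and 42.6, and BMPC C 41.7, 46.9 and 43.8. The nB libraries lay above the others, and GCB overlapped BMPC. On the log2(RPPM + 1) scale, GCB differed from nB by -0.47 ± 0.13 (log2 fold change ± SE) and BMPC from nB by -0.37 ± 0.11 (limma, adjusted p = 0.00399 and 0.00712), each below the 2-fold limit, and 0.10 ± 0.13 from GCB to BMPC (limma, adjusted p = 0.540). In order of their means the groups were nB KO (58.4), nB C (57.4), BMPC C (44.1), GCB C (41.1), GCB KO (40.9) and BMPC KO (39.4 RPPM), and the only neighbors in this order whose ranges did not overlap were nB C and BMPC C.

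At the Irf8 start (chr8:123259711-123260642, promoter, first exon and intron), nB C libraries had 50.9, 50.5 and 47.6 RPPM, GCB C 41.3 and 27.6, and BMPC C 39.5, 44.9 and 43.0. The nB libraries were again highest, and the GCB C libraries lay within the BMPC range or below it. From nB to GCB the log2 fold change was -0.54 ± 0.15 (limma, adjusted p = 0.00502), below the 2-fold limit, and from nB to BMPC -0.22 ± 0.14 (limma, adjusted p = 0.168). The order of means was nB C (49.7), nB KO (46.4), BMPC C (42.5), GCB C (34.5), BMPC KO (33.0) and GCB KO (27.9 RPPM). The ranges of nB C, nB KO and BMPC C did not overlap, and those of each later pair of neighbors did.

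Summed over all its regions, each locus changed far less between groups than its single regions did. The Irf4 sum averaged 283 ± 9.38 RPPM (SD, n = 3) in nB C, 282 ± 1.35 (n = 2) in GCB C and 299 ± 7.95 (n = 3) in BMPC C, and 299.6 ± 9.26 (n = 2), 276 ± 24.5 (n = 4) and 312 ± 2.35 (n = 2) in the KO groups in the same order. Libraries ranged from 246 to 313 RPPM, both ends being KO libraries, of GCB and BMPC. The Irf8 sum averaged 372 ± 18.3, 395.5 ± 35.3 and 345 ± 11.5 RPPM in nB, GCB and BMPC of C mice and 362 ± 23.0, 365 ± 33.5 and 328 ± 20.5 of KO mice. BMPC KO and C libraries overlapped (313 to 342 and 332 to 354 RPPM), as did every other pair of C and KO groups except for Irf4 in nB (273.8 to 292.6 in C, 293.0 to 306 in KO) and BMPC (293 to 308 in C, 309.9 to 313 in KO). Scaled to reads outside chrM, which took 7.43% to 10.1% of reads in GCB and 2.56% to 4.59% in the other cells, the sums in nB, GCB and BMPC of C mice became 295, 309 and 308 RPPM at Irf4 and 387, 433 and 355 at Irf8.

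**Figure D2:**
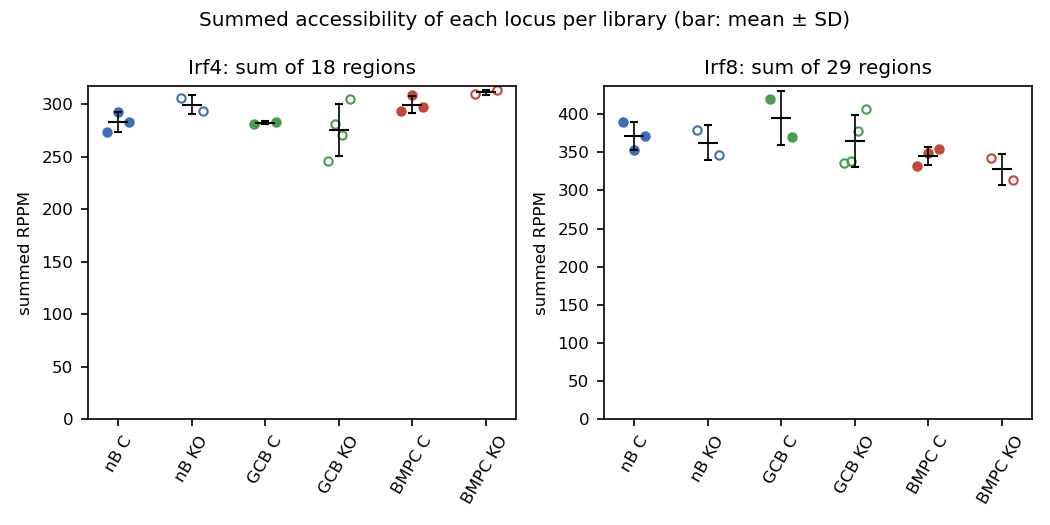
Summed RPPM (y axis) of the 18 Irf4 regions (left) and the 29 Irf8 regions (right) in each library, by group (x axis); filled points are C, open points KO, and bars are mean ± SD. The Irf4 sums lay between 246 and 313 RPPM and the Irf8 sums between 313 and 420.

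From nB to GCB in C mice, members changed about as often as regions in general or less often, and the largest rise at each gene was upstream. Regions count as called, or as having risen or fallen, where the adjusted p was 0.01 or lower and the change 2-fold or more. At Irf4 2 of 18 regions rose and 2 fell, and at Irf8 3 of 29 rose and 2 fell, while 22.7% of all 66177 regions were called (14.2% higher and 8.47% lower in GCB). The called shares of 22.2% at Irf4 and 17.2% at Irf8 were thus close to or below that of all regions. Median log2 fold changes were 0.005 at Irf4 and 0.16 at Irf8, beside 0.05 over all regions.

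The largest rise at Irf4 was 18.5 kb upstream (chr13:30822013-30822583, no annotated feature), where nB C libraries had 4.39, 7.16 and 5.58 RPPM, GCB C 40.5 and 41.7, and BMPC C 25.6, 28.3 and 29.4. The 3 cell types did not overlap here, and GCB was highest. Log2 fold changes over nB were 2.67 ± 0.21 in GCB and 2.12 ± 0.19 in BMPC (limma, adjusted p = 6.1e-11 and 1.33e-10), and -0.55 ± 0.21 from GCB to BMPC (limma, adjusted p = 0.0276). The other riser, 23.9 kb upstream, went from 5.49 ± 0.54 RPPM (n = 3) in nB C to 13.3 ± 2.29 (n = 2) in GCB C and 21.2 ± 2.94 (n = 3) in BMPC C.

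The largest fall at Irf4 was 17.6 kb downstream, in a region (chr13:30858683-30859389) that began over an exon and 3′ untranslated region. The annotated transcript ended at 30858796, so most of the region lay beyond it. In this region nB C libraries had 25.1, 21.1 and 18.8 RPPM, GCB C 6.16 and 4.68, and BMPC C 18.6, 16.8 and 16.3. GCB alone was low, with no overlap with the other cells. Log2 fold changes were -1.82 ± 0.21 from nB to GCB and 1.51 ± 0.21 from there to BMPC (limma, adjusted p = 6.85e-08 and 7.53e-07). The other faller, 20.8 kb downstream and so wholly beyond the gene, averaged 4.51 RPPM in nB C, 1.13 in GCB C and 3.13 in BMPC C.

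At Irf8 the largest rise was 4.0 kb upstream (chr8:123255940-123256304, no annotated feature), with 1.71, 0.754 and 0.744 RPPM in nB C, 20.2 and 13.6 in GCB C, and 5.20, 6.39 and 7.01 in BMPC C. GCB lay above BMPC and BMPC above nB, with no overlap. The changes were 3.12 ± 0.33 from nB to GCB, 1.82 ± 0.29 from nB to BMPC and -1.30 ± 0.33 from GCB to BMPC on the log2 scale (limma, adjusted p = 1.65e-08, 5.54e-06 and 0.00159). The largest fall was 28.0 kb downstream (chr8:123288316-123288757, beyond the gene), from 16.3, 13.8 and 16.6 RPPM in nB C to 5.28 and 4.22 in GCB C and 2.86, 3.28 and 4.20 in BMPC C, a log2 fold change of -1.53 ± 0.28 from nB to GCB (limma, adjusted p = 7.89e-05). The other called regions were 24.6 kb upstream and 95.4 kb downstream, which rose, and 20.7 kb upstream, which fell.

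From nB to BMPC in C mice, both loci changed at more members than regions in general. At Irf4 6 of 18 regions rose and 3 fell (50.0% called), and at Irf8 8 of 29 rose and 10 fell (62.1% called), against 38.1% of all regions (18% higher and 20.1% lower in BMPC). The members were chosen for their genes and not at random, and no test sets these shares against the background. All 6 risers at Irf4 lay upstream of the gene, between 1.3 and 43.8 kb, and 2 of the 3 fallers near its 5′ end, 1.2 and 1.6 kb downstream. All 10 fallers at Irf8 lay downstream of the start, and the risers were 3 upstream and 5 downstream. Median log2 fold changes were -0.24 at Irf4 and -0.43 at Irf8, beside 0.03 over all regions.

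The largest rise at Irf4 was 33.1 kb upstream (chr13:30806790-30808023, no annotated feature). Libraries had 1.95, 1.70 and 2.05 RPPM in nB C, 6.60 and 2.34 in GCB C, and 41.4, 36.5 and 39.4 in BMPC C. BMPC stood far above both B cell types, a log2 fold change of 3.79 ± 0.29 from nB and 2.99 ± 0.33 from GCB (limma, adjusted p = 1.33e-11 and 1.91e-08). The regions 43.8 and 25.0 kb upstream had the same order, with 1.76 ± 0.30, 3.82 ± 1.43 and 18.2 ± 2.49 RPPM and with 0.787 ± 0.32, 1.79 ± 1.20 and 13.9 ± 1.89 RPPM in nB C, GCB C and BMPC C. The region 27.8 kb upstream, which lies between those at 33.1 and 25.0 kb, was instead lowest in BMPC, with 6.70 ± 0.80, 7.47 ± 0.63 and 3.92 ± 0.58 RPPM, and was not called. In addition, the region 20.6 kb upstream, on the gene side of these risers, averaged 20.1, 19.4 and 21.2 RPPM and was called in no contrast.

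The largest fall at Irf4 was 11.6 kb upstream (chr13:30828431-30829519, no annotated feature). Libraries had 39.2, 42.4 and 37.4 RPPM in nB C, 31.7 and 28.1 in GCB C, and 2.34, 3.83 and 3.27 in BMPC C. The region was open in both B cell types and nearly closed in BMPC, with log2 fold changes of -3.31 ± 0.18 from nB and -2.91 ± 0.20 from GCB (limma, adjusted p = 1.18e-14 and 3.46e-12). The region 1.2 kb downstream fell from 10.9 ± 0.63 RPPM in nB C and 11.9 ± 3.09 in GCB C to 2.16 ± 0.42 in BMPC C. The large region 11.5 kb downstream, over exon and intron, stayed high in all cells, at 61.1 ± 2.60, 60.1 ± 7.81 and 47.4 ± 0.52 RPPM.

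At Irf8 the largest rise was 24.6 kb upstream (chr8:123234944-123235717, no annotated feature). The nB C libraries had 0.731, 0.188 and 0.186 RPPM, which are 3, 1 and 1 reads, GCB C had 4.84 and 2.81, and BMPC C had 27.7, 34.8 and 29.7 RPPM. BMPC lay above all other cells. The log2 fold change was 4.55 ± 0.30 from nB and 2.75 ± 0.34 from GCB (limma, adjusted p = 5.79e-13 and 1.26e-07), and since nB was at or below the floor the size from nB depended on the pseudocount, from 2.73 to 6.52 over the settings tried. The region 60.7 kb downstream had 11.4, 17.5 and 14.9 RPPM in nB C, 15.4 and 15.5 in GCB C, and 49.8, 54.2 and 45.5 in BMPC C, a change of 1.72 ± 0.19 from nB (limma, adjusted p = 9.14e-09). The regions 40.7 and 42.7 kb downstream also rose from nB to BMPC.

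The largest fall at Irf8 was in the long intron 8.2 kb downstream (chr8:123268491-123268653). Libraries had 8.28, 6.78 and 7.63 RPPM in nB C, 10.6 and 8.90 in GCB C, and 0.650, 0.547 and 0.311 in BMPC C. The BMPC values were 5, 3 and 2 reads, and the log2 fold change of -2.51 ± 0.26 from nB (limma, adjusted p = 3.99e-09) ranged from -3.87 to -1.19 over the settings tried. Every one of the 9 regions from 8.2 to 31.0 kb downstream fell from nB to BMPC, a stretch chosen after the values were seen. Together these 9 regions summed to 119 to 126 RPPM in nB C, 132 to 135 in GCB C and 29.0 to 38.1 in BMPC C. By contrast, the region 10.4 kb upstream, among the most accessible per length in all cells, averaged 90.5 ± 13.5, 100.4 ± 6.12 and 66.9 ± 6.80 RPPM and was not called.

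From GCB to BMPC in C mice, 4 regions rose and 3 fell at Irf4 (38.9% called), and 5 rose and 9 fell at Irf8 (48.3%), against 30.4% of all regions (11.3% higher and 19.1% lower in BMPC). The regions with the largest changes were those named for nB to BMPC. The median log2 fold change was 0.12 at Irf4 and -0.48 at Irf8, beside -0.06 over all regions. Contrasts that share BMPC or nB libraries are not independent of each other.

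**Figure D3:**
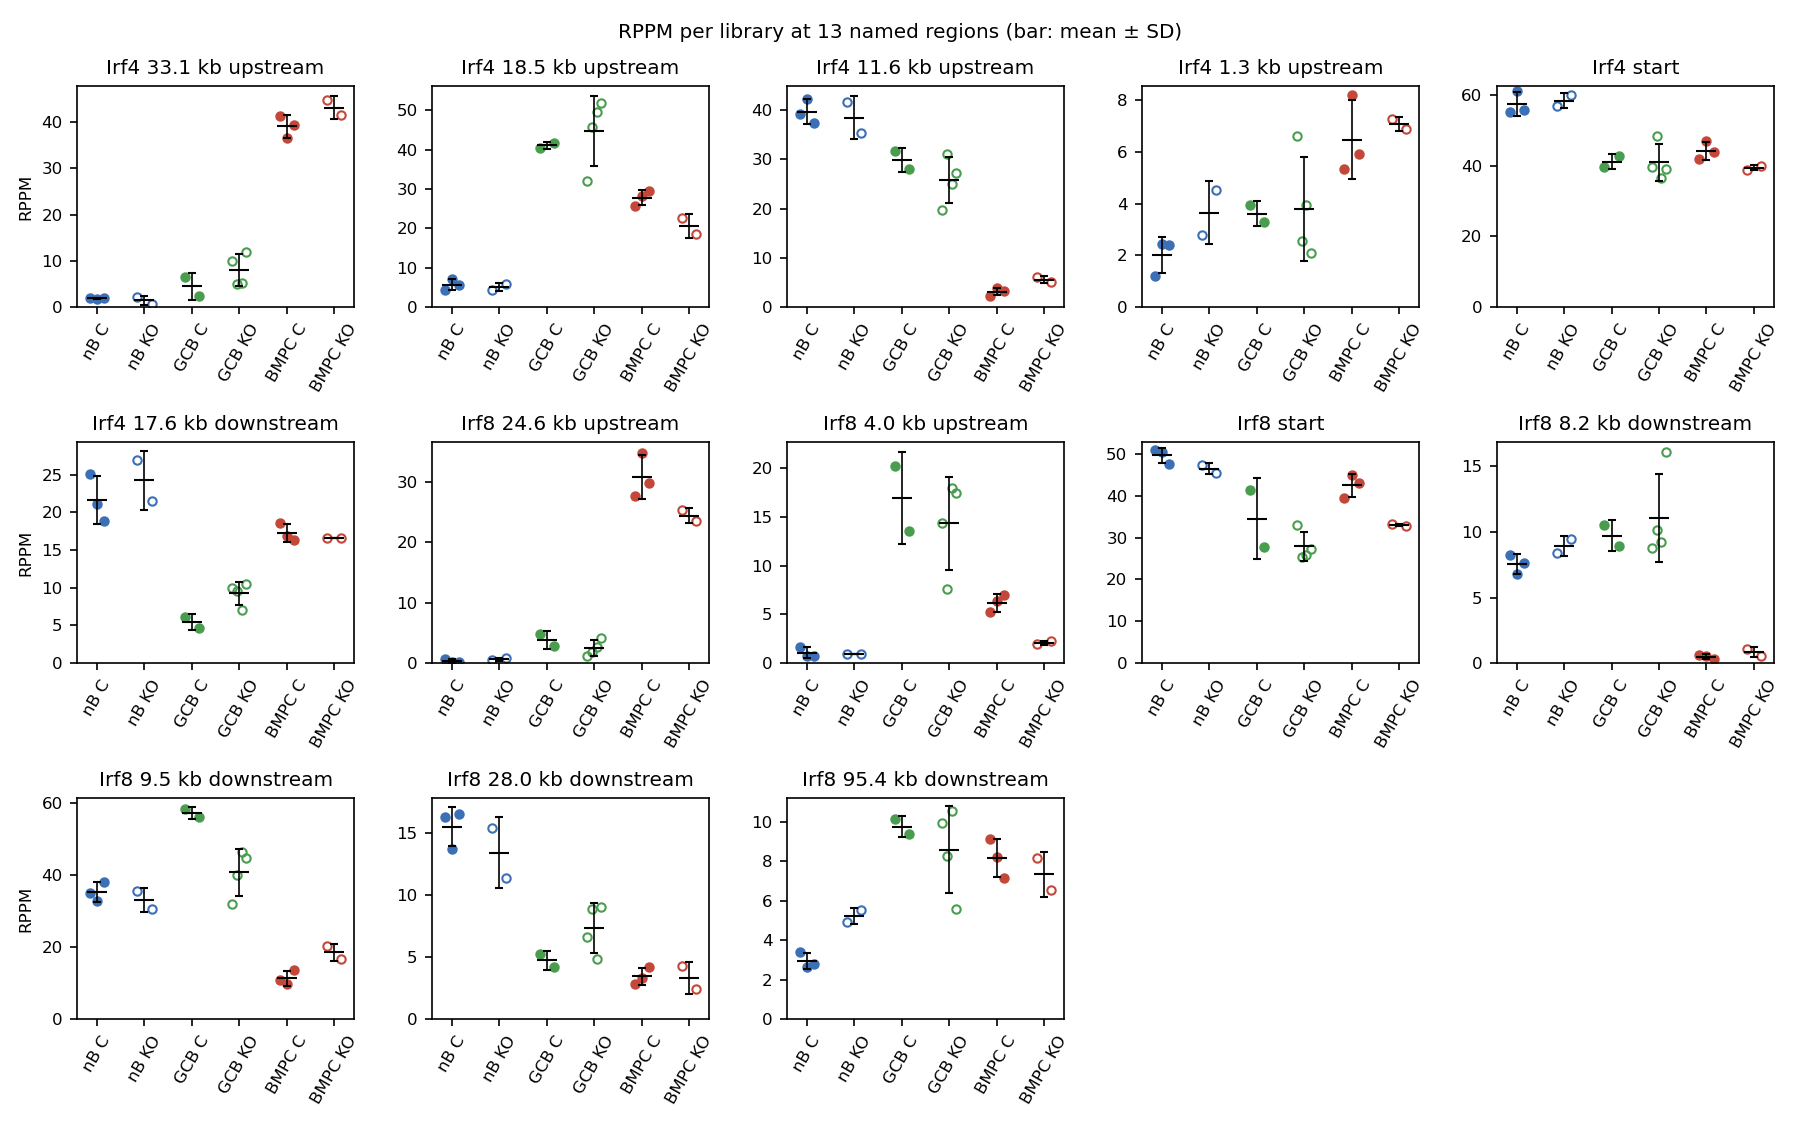
RPPM (y axis) in each library at 13 named regions, by group (x axis); filled points are C, open points KO, and bars are mean ± SD. BMPC lay highest 33.1 kb upstream of Irf4 and 24.6 kb upstream of Irf8, GCB highest 18.5 kb upstream of Irf4 and 4.0 kb upstream of Irf8, and BMPC lowest 11.6 kb upstream of Irf4 and 8.2 kb downstream of Irf8.

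KO cells were compared across the same steps to ask whether the loci change in the absence of Dnmt3a and Dnmt3b. These contrasts share no library with those in C. However, all groups share the estimate of the spread of a region, so calls in C and KO are not fully independent. From nB to GCB, 3 Irf4 regions rose and 2 fell and 2 Irf8 regions rose and 1 fell, against 26.3% of all regions called (18.4% higher and 7.84% lower). From nB to BMPC, 5 Irf4 regions rose and 3 fell and 4 Irf8 regions rose and 9 fell, against 35.3% (18.4% higher and 16.9% lower). From GCB to BMPC, 4 Irf4 regions rose and 4 fell and 5 Irf8 regions rose and 11 fell, against 32% (12.1% higher and 19.9% lower). The genotypes did not have the same power, since nB and BMPC had 3 C and 2 KO libraries each whereas GCB had 2 C and 4 KO libraries.

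Regions called in both genotypes were counted beside the same count over all regions. From nB to BMPC, 8 Irf4 regions were called in both, which is 88.9% of those called in C and 100% of those in KO, and 13 Irf8 regions were, 72.2% and 100%, beside 79.9% and 86.3% over all regions. From GCB to BMPC the shared calls were 6 at Irf4 (85.7% of C and 75.0% of KO) and 13 at Irf8 (92.9% and 81.2%), beside 77.7% and 73.9% over all regions. From nB to GCB they were 3 at Irf4 (75.0% and 60.0%) and 2 at Irf8 (40.0% and 66.7%), beside 76.9% and 66.5% over all regions, and in no step did a region pass in both genotypes with opposite signs. In KO the region 33.1 kb upstream of Irf4 had 2.14 and 0.787 RPPM in nB, 9.91, 5.09, 5.26 and 11.9 in GCB, and 44.8 and 41.4 in BMPC, so that GCB lay between nB and BMPC. This region and the one 25.0 kb upstream were called from nB to GCB in KO (log2 fold change 1.85 ± 0.31 and 1.85 ± 0.33) and not in C (0.80 ± 0.33 and 0.59 ± 0.35), and the genotypes' difference was 1.05 ± 0.45 and 1.26 ± 0.48 (limma interaction, adjusted p = 0.779 and 0.746).

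**Figure D4:**
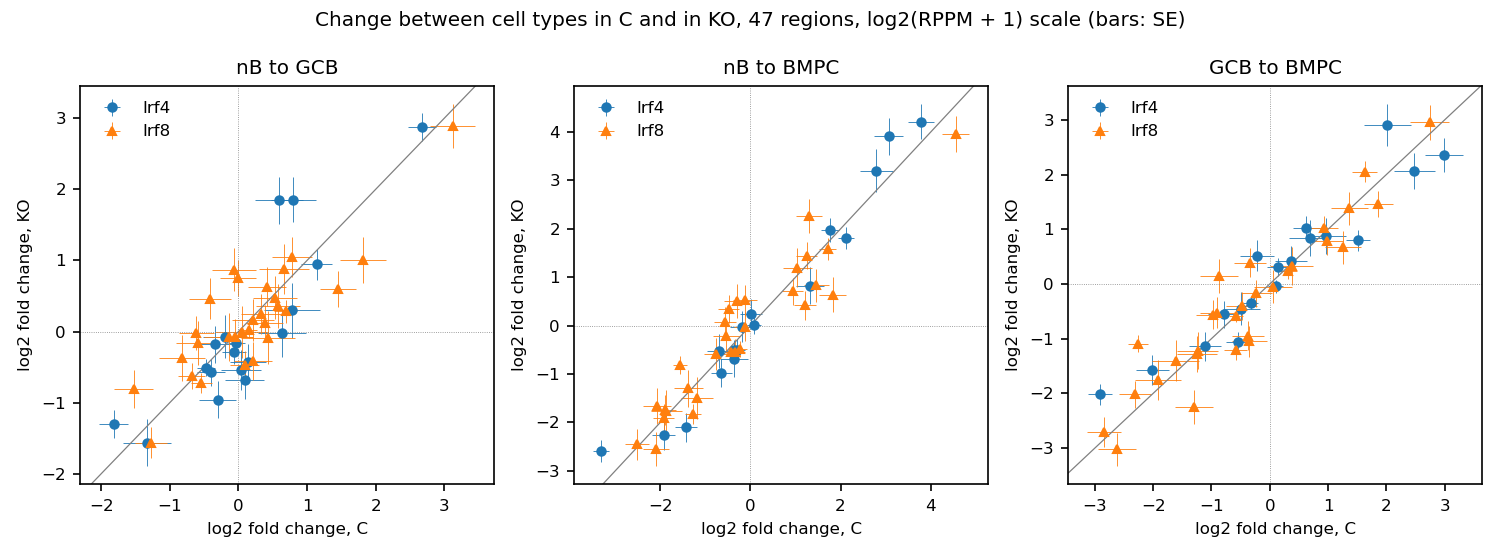
Log2 fold change in KO (y axis) against that in C (x axis) on the log2(RPPM + 1) scale for the 47 regions, in each of the 3 steps; circles are Irf4, triangles Irf8, bars SE, and the grey line is equality. From nB to BMPC the 8 Irf4 and 13 Irf8 regions called in both genotypes moved in the same direction.

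Within a cell type, 0 of 47 regions were called between KO and C in nB, in GCB or in BMPC by limma, where 0%, 0.0317% and 0.104% of all regions were called. At an unadjusted p under 0.05 there were 0 Irf4 and 1 Irf8 regions in nB, 4 and 4 in GCB, and 1 and 6 in BMPC, where 1.67%, 11.8% and 9.55% of all regions had such a p. Median log2 fold changes over the 47 regions were 0.04 in nB, -0.03 in GCB and 0.07 in BMPC, beside -0.01, 0.03 and 0.03 over all regions. On the recovered reads, edgeR's quasi-likelihood test called 0 members in nB and GCB and 1 in BMPC (background 0.0106%, 0.00151% and 1.81%), and so did its likelihood ratio test (0.0151%, 0.0181% and 2.53%) and DESeq2 (0.00151%, 0% and 0.746%). At an unadjusted p under 0.05 each edgeR test had 6, 3 and 13 of the 47 members in nB, GCB and BMPC (4.55%, 6.40% and 19.3% of all regions by quasi-likelihood and 5.50%, 7.37% and 21.1% by likelihood ratio), and DESeq2 had 1, 3 and 9 (2.38%, 4.83% and 13.2%).

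The member that the count tests called, and that is described here because of that call, was the region 4.0 kb upstream of Irf8 in BMPC. Its 3 C libraries had 5.20, 6.39 and 7.01 RPPM and its 2 KO libraries 1.94 and 2.24, with no overlap. The KO libraries were close to nB, whose libraries of both genotypes had 0.744 to 1.71 RPPM. By limma the log2 fold change was -1.21 ± 0.33 with an adjusted p of 0.0781 (unadjusted p = 0.000947). The adjusted p was 0.000849 by edgeR's quasi-likelihood test, 0.000104 by its likelihood ratio test and 0.00699 by DESeq2, with log2 fold changes of -1.64, -1.64 and -1.63. In GCB the same region had 20.2 and 13.6 RPPM in C and 14.3, 7.64, 18.0 and 17.5 in KO, which overlapped. Beside these values, the myeloid and dendritic markers (6 of 8 with a region) summed to 55.3 to 58.6 RPPM in BMPC C and 37.0 to 42.4 in BMPC KO, 43.5 to 54.0 in nB and 67.2 to 84.7 in GCB, and limma called none of them between KO and C in any cell type. The lower sum in BMPC KO came from Flt3, with 43.2 to 51.3 RPPM in C and 26.7 to 33.6 in KO, while the other 5 markers together had 6.85 to 13.5 in C and 8.77 to 10.3 in KO. According to the study's methods, the staining panels removed cells positive for CD11b, CD11c, CD90.2 or Ly6-G. The part of other cells in the result at Irf8 was not tested.

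The smallest p for KO against C in both GCB and BMPC at Irf8 belonged to the intronic region 9.5 kb downstream (chr8:123269802-123270833). GCB had 58.5 and 56.2 RPPM in C and 31.9, 40.1, 46.5 and 44.7 in KO, and BMPC had 10.8, 9.67 and 13.5 in C and 20.3 and 16.8 in KO. All KO libraries lay below C in GCB and above C in BMPC, and in nB the genotypes overlapped. The log2 fold change was -0.49 ± 0.16 in GCB and 0.67 ± 0.17 in BMPC (limma, adjusted p = 0.206 and 0.0577), neither of which passed. Over the limma, edgeR and DESeq2 settings tried, the change in BMPC was 0.53 to 0.80 (adjusted p 0.00258 to 0.577), always below 2-fold. In GCB it was -0.56 to -0.38 (adjusted p 0.112 to 0.925). By limma, the difference between the effects in GCB and BMPC was 1.16 ± 0.23 on the log2 scale (limma interaction, unadjusted p = 3.25e-05, adjusted p = 0.0936). No member passed in any of the 3 interactions of genotype with cell type, in which 0% of all regions did, with 6, 5 and 6 of 47 members at an unadjusted p under 0.05 for BMPC against nB, GCB against nB and BMPC against GCB, beside 5.24%, 6.21% and 8.32% of all regions. Only limma was run for the interactions.

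At Irf4 the smallest p in BMPC was 11.6 kb upstream, with 2.34, 3.83 and 3.27 RPPM in C and 6.07 and 5.04 in KO. These ranges did not overlap, and both lay far below nB and GCB. The log2 fold change was 0.67 ± 0.20 (limma, adjusted p = 0.125). In GCB it was the 3′ region 17.6 kb downstream, with 6.16 and 4.68 RPPM in C and 9.91, 9.55, 7.01 and 10.5 in KO (log2 fold change 0.67 ± 0.20, limma, adjusted p = 0.151). In nB it was the promoter region 1.3 kb upstream, with 1.22, 2.45 and 2.42 RPPM in C and 2.80 and 4.53 in KO (0.63 ± 0.35, limma, adjusted p = 1). For Irf8 in nB it was 95.4 kb downstream, with 3.41, 2.64 and 2.79 RPPM in C and 4.94 and 5.51 in KO (0.66 ± 0.27, limma, adjusted p = 1).

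At neither start did the genotypes differ 2-fold in any cell type. At Irf4 the KO libraries had 56.9 and 59.8 RPPM in nB, 39.6, 48.4, 36.4 and 39.2 in GCB, and 38.9 and 39.9 in BMPC, and the log2 fold changes against C were 0.03 ± 0.13, -0.01 ± 0.12 and -0.16 ± 0.13 (limma, adjusted p = 1, 0.977 and 0.869). At Irf8 they had 47.4 and 45.5 RPPM in nB, 33.0, 25.5, 25.9 and 27.3 in GCB, and 33.2 and 32.9 in BMPC, with log2 fold changes of -0.10 ± 0.15, -0.28 ± 0.14 and -0.35 ± 0.15 (limma, adjusted p = 1, 0.457 and 0.405). In BMPC the KO libraries lay below the C libraries at both starts. The change at the Irf8 start in BMPC depended on the test for its p but little for its size. Over the limma, edgeR and DESeq2 settings tried, it was -0.43 to -0.31, and the lowest adjusted p was 0.0085. The members that rose most from nB to BMPC in C were likewise not called between genotypes in BMPC, with 0.14 ± 0.33 at 33.1 kb upstream of Irf4 and -0.32 ± 0.34 at 24.6 kb upstream of Irf8 on the log2 scale (limma, adjusted p = 1 and 0.955). A p that misses the threshold does not show that genotypes were alike, and with these SEs smaller differences were not detectable.

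**Figure D5:**
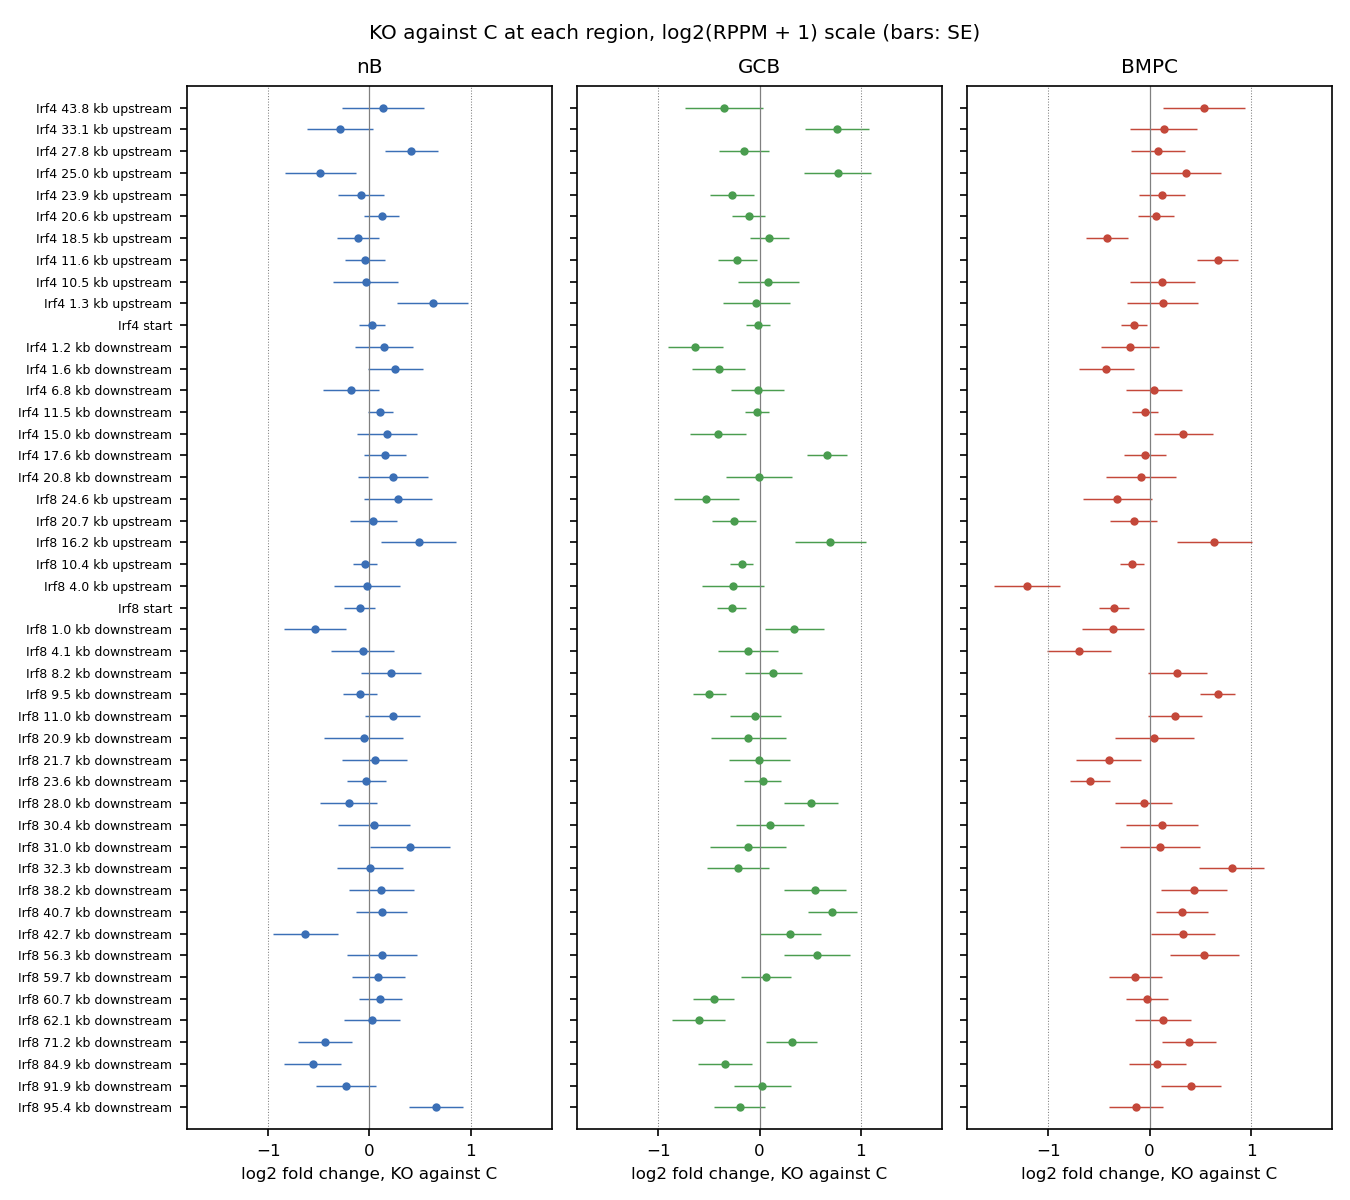
Log2 fold change of KO against C (x axis, log2(RPPM + 1) scale, bars SE) at each of the 47 regions (y axis), in nB, GCB and BMPC; dotted lines mark a 2-fold change. The region 4.0 kb upstream of Irf8 in BMPC, at -1.21, was the only point beyond 2-fold.

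Genes related to IRF4 and IRF8 were taken by the region nearest their start. Of the other IRF family genes (6 of 7 with a region), 4 passed in neither direction from nB to GCB or from nB to BMPC in C mice. Irf7, which drives type I interferon genes, rose from 58.2 ± 7.14 RPPM (SD, n = 3) in nB C to 141 ± 11.7 (n = 2) in GCB C and 138 ± 5.12 (n = 3) in BMPC C, a log2 fold change of 1.27 ± 0.11 and 1.24 ± 0.10 (limma, adjusted p = 4.48e-10 and 1.9e-11). From GCB to BMPC in C 0 of 6 passed. Over all regions, 22.7% were called from nB to GCB in C, 38.1% from nB to BMPC and 30.4% from GCB to BMPC. Among DNA-binding partners (10 of 10), Batf3 rose in C from 1.43 RPPM in nB to 4.29 in GCB (log2 fold change 1.15 ± 0.35, limma, adjusted p = 0.00874). These values are near the floor, since 3 reads equalled 1.32 and 1.41 RPPM in the GCB C libraries. Batf3 did not pass in KO (0.45 ± 0.33, limma, adjusted p = 0.267). Spib, the ETS partner of both factors, fell in C from nB to BMPC and from GCB to BMPC, from 14.2 and 17.5 RPPM to 5.23 (log2 fold change -1.30 ± 0.20 and -1.60 ± 0.23, limma, adjusted p = 3.48e-06 and 1.31e-06). The start of Spi1, which encodes PU.1, averaged 39.2, 40.2 and 35.5 RPPM and was not called.

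Of 11 regulators of germinal center and plasma cells, 2 fell from nB to GCB in C, 0 rose and 1 fell from nB to BMPC, and 2 rose from GCB to BMPC. Over all regions, 8.47% fell from nB to GCB, 18% rose and 20.1% fell from nB to BMPC, and 11.3% rose from GCB to BMPC. Prdm1, which encodes BLIMP-1 and is induced by IRF4 in plasma cells, rose from 31.2 RPPM in GCB C to 65.6 in BMPC C (log2 fold change 1.05 ± 0.15, limma, adjusted p = 1.25e-06). Pax5, the B cell identity factor, fell from 40.3 in nB C to 2.84 in BMPC C (-3.44 ± 0.21, limma, adjusted p = 1.08e-13). Bcl6, which represses plasma cell genes in the germinal center, was lower at its start in GCB C than in nB C, at 20.01 against 53.8 RPPM (-1.38 ± 0.18, limma, adjusted p = 4.73e-07). Of these 27 IRF family, partner and regulator genes, limma called 0 between KO and C in each cell type, with 0 in nB, 3 in GCB and 5 in BMPC at an unadjusted p under 0.05 (1.67%, 11.8% and 9.55% of all regions), and the count tests were not summarized for them.

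Over all 16 libraries, the start regions of other genes most like the Irf4 start, among 10330 genes with a region within 1000 bp of the start and a mean of at least 5 RPPM, were those of Dancr, Hist1h4a, H2-Aa, Zdhhc14 and Mir150 (Pearson r of log2(RPPM + 1) of 0.957, 0.946, 0.942, 0.928 and 0.920). For the Irf8 start they were Macf1, Rps26, Ghdc, Trex1 and Mrs2 (0.937, 0.931, 0.930, 0.926 and 0.922). The starts of Irf4 and Irf8 were less like each other, with r = 0.712. These correlations describe 16 libraries that share cell types and depths.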

How the data were processed

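ATAC-seq libraries of 16 samples in 6 groups, assigned from the labels, were analysed. Per the submitters' processing notes, reads were mapped to mm9 with Bowtie 1.1.1, duplicates were handled with Picard 1.127, and regions were called with MACS2 2.1.0.20140616 and compared with edgeR 3.12.1. The authors took the union of all samples' peaks and deposited RPPM, reads per 1000000 reads in those regions (RPM over accessible regions), for each library. The 54 columns of the authors' own comparisons (fold changes and test results) were not used. Since 100% of the deposited values were whole multiples of 1 read (tolerance 0.02), reads were recovered from them, with the depths given above.

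RPPM were tested as log2(RPPM + 1) with limma 3.58.1 (R 4.3.3) over all 66177 regions and all 16 libraries in 1 fit with a mean-variance trend and Benjamini-Hochberg adjustment within each contrast. The SE is that of the fit, and tests were two-sided. The fit was run on simulated data in which some regions were changed in BMPC KO, by more than the 2-fold limit and at a fixed spread. This does not show how the fit performs near that limit. Alternatives were pseudocounts of 0.1 and 5, a mean of at least 1 RPPM, TMM, quantile and outside-chrM scaling, fits of the compared groups alone, a looser adjusted p of 0.05, edgeR 4.0.16 and DESeq2 1.42.0 on recovered reads, a replicate block and leaving out each library. Sums under other scalings were added after the data were seen.

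The members and gene lists were chosen with earlier results of these data known. Full statistics were given for the region at each start, the called region with the largest rise and fall in each C contrast between cell types, and, in each cell type, the region whose KO against C difference had the lowest unadjusted p. Other regions and the region 4.0 kb upstream of Irf8 in BMPC were named after their values were seen. Other genes were represented by the region nearest their start. Python 3.11.15 was used for the rest. Some genes of the lists, a detail of the genotype and 1 sequence are not reported here.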

Additional observations from a re-analysis of the deposited data

Results flagged for a closer look

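At 1.0 kb downstream of the Irf8 start, in an intron, GCB KO replicate 4 had 11.9 RPPM while the other 3 GCB KO libraries had 5.51 to 5.73. Its gap to the nearest library was 0.965 of the range of the group, above Dixon's 95% critical value for 4 samples. Of 49 sets of values tested in this way, 1 stood apart, and chance gives about 1 in 20. Without this library the fall from GCB to BMPC in KO went from a log2 fold change of -1.05 (limma, adjusted p = 0.00315) to -0.81 (limma, adjusted p = 0.0118) and was no longer called.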

How the results depend on the processing

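Counts of called members stayed within 1.5 times in 188 of 200 cases. With a pseudocount of 5, calls fell to 2 (Irf4) and 2 (Irf8) for C from nB to GCB, 9 (Irf8) for C from nB to BMPC, 8 (Irf8) for C from GCB to BMPC, 2 (Irf4) for KO from nB to GCB, and 4 (Irf4) and 8 (Irf8) for KO from GCB to BMPC. Both edgeR tests called 5 Irf8 regions for KO from nB to GCB, and edgeR and DESeq2 called 1 Irf8 region for KO against C in BMPC. The cause was not tested.

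With 1 library left out, the calls ranged from 2 to 4 (Irf4) and 5 to 6 (Irf8) for C from nB to GCB, from 9 to 9 and 16 to 18 from nB to BMPC, and from 6 to 7 and 11 to 17 from GCB to BMPC. In KO they ranged from 5 to 7 and 2 to 4, from 8 to 8 and 10 to 11, and from 6 to 8 and 10 to 17 in the same order. The count of 2 was without GCB C replicate 1 and the count of 10 from GCB to BMPC without BMPC KO replicate 2. KO against C stayed at 0 by limma.

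Changes at the starts that were close to 0 turned sign. At the Irf4 start, C from GCB to BMPC became -0.19 with quantile scaling. KO against C there in GCB became 0.045 with quantile scaling and 0.081 with the replicate block, and ranged from -0.096 to 0.038 with 1 library left out, being above 0 without GCB C replicate 2, GCB KO replicate 3 or GCB KO replicate 4. In nB it ranged from -0.0097 to 0.073, being below 0 without nB C replicate 1 or nB KO replicate 2. KO against C at the Irf8 start in GCB ranged from -0.56 to 0.0061, the latter without GCB C replicate 1. All 196 values of the regions chosen as called between cell types kept their call and direction.

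GCB libraries of C and KO share 2 pool names. Their deviations from the group means correlated within ±0.064, with 0.036 and 0.064 for the pairs of the same name, and no pairing was taken. With 2 GCB C libraries the deviations of these mirror each other, so the check could not exclude a pairing. With the replicate block, 0 Irf4 and 0 Irf8 regions were called for KO against C in GCB, as without it. Over all regions the calls went from 21 without the block to 135 with it.

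For the region 4.0 kb upstream of Irf8, KO against C in BMPC ranged from -1.64 to -0.66 over the settings (adjusted p 0.000104 to 0.488). GCB libraries were the shallowest, and regions near 3 reads had the least certain fold changes.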
